A study of Mus musculus with 9 samples.

Results

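The genes described here are those that encode the proteins of the cytosolic ribosome, measured in mouse brain on Clariom S arrays, which read each gene with a set of short probes. They were chosen by symbol alone, as the Rpl, Rps and Rplp names followed by a number, with at most 1 letter and 1 further digit after it. The rule found 62 genes among the 19505 genes named on the array, each with 1 probe set of the 22206 measured. Of the 62, 31 encode proteins of the large subunit, 21 proteins of the small subunit and 2 proteins of the stalk (Rplp0 and Rplp1), and 8 are paralog forms with a name of their own (Rpl10l, Rpl22l1, Rpl32l, Rpl39l, Rpl3l, Rpl7l1, Rps27l and Rps4l). All 62 matched a RefSeq gene, and RefSeq lists Rps4l as a transcribed pseudogene. No filter on low signal was applied, so every gene entered every comparison. Symbols for Rplp2, Rps27a and Rpl10 were not on the probe sets used here.

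A ribosome is built from a small subunit, which reads the messenger RNA, and a large subunit, which joins the amino acids, and each is made of ribosomal RNA and a fixed set of proteins needed in about equal numbers. Messenger RNAs of these proteins begin with a run of pyrimidines, the TOP sequence (terminal oligopyrimidine), through which the kinase mTOR sets how strongly they are translated. In brain the proteins are made in every cell type, and in neurons some of their messenger RNAs also lie in axons and dendrites.

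Each of the 3 groups had 3 arrays, each of brain RNA from male mice. Wild-type mice were C57BL/6JHamSlc-+/+ given vehicle, and obese mice were C57BL/6JHamSlc-ob/ob, which carry a defective leptin gene in every cell, given vehicle. The treated group was C57BL/6JHamSlc-ob/ob given VE, an extract of Vigna umbellata (rice bean), at 100 mg/kg by oral gavage. The mice came at 6 weeks of age, had 1 week of acclimatization and 42 days of dosing, and all ate standard chow. The labels number the arrays of a group without saying whether each came from a separate animal, so p-values measure the spread between these arrays. The design text names white fat and a lower VE dose, neither of which is on the labels of these 9 samples. All 11 neuron markers read 8.94 or more on the log2 scale on every array.

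Values are the authors' deposited log2 signals. A difference of 1 is a 2-fold difference in signal, and signals of different probe sets do not rank the transcripts. The arrays differed in how far bright and dim probe sets lay apart. The SD of the log2 signal over all probe sets was 2.78 to 2.84 on the wild-type arrays, 2.56 to 2.73 on the ob/ob vehicle arrays and 2.80, 2.38 and 2.69 on VE arrays 1, 2 and 3. Most ribosomal protein genes are bright, so each was also set against the 200 other probe sets nearest to it in mean signal, here called like-level probe sets. For the brightest genes these 200 spread widely in level, with mean signals of 15.35 to 18.77 for Rps23, against 10.12 to 10.24 for Rps13. For such bright genes the comparison is therefore rougher. The difference of a gene less the median difference of its like-level probe sets is called its excess. A second scale, after quantile normalization, gave all 9 arrays the same distribution.

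In ob/ob vehicle brain the ribosomal protein genes lay below wild type as a group, and part of that difference was shared by like-level probe sets. The median difference was -0.54 log2 units over the 62 genes, with a range of -1.23 to 0.31, beside 0.02 over all probe sets and -0.31 over like-level probe sets. The median excess was -0.21, and 49 of the 62 genes had an excess below 0. Quantile normalization moved the median difference to -0.19 and left the median excess at -0.20. Both medians were below 0 also under centring of the arrays (-0.62 and -0.21) and cyclic loess (-0.20 and -0.21). In bulk RNA, fewer cells of a type and less RNA per cell cannot be told apart.

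Of the 62 genes, 56 were lower in ob/ob vehicle than in wild type, a direction shown by 48.6% of all probe sets, and 6 were higher, against 51.3%. For 45 genes (72.6%) all 3 ob/ob vehicle arrays lay below all 3 wild-type arrays, against 17.5% of all probe sets and 32.7% of the 5412 like-level probe sets. No gene had all 3 ob/ob vehicle arrays above the wild-type arrays, against 15.8% of all and 8.92% of like-level probe sets. After quantile normalization 50 genes were lower (against 50.8% of all probe sets). Then 20 genes (32.3%) lay wholly below wild type, against 15.1% of all and 17% of like-level probe sets, and 3 genes lay wholly above, against 13.8% and 16.8%.

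A single gene, Rps13, passed limma at adjusted p under 0.05 (1.61% of the 62 genes, against 0.73% of all probe sets called lower), and none was called higher (against 0.536%). Without adjustment, 20 genes (32.3%) were lower at p under 0.05 by limma, against 10.2% of all probe sets, and 0 were higher, against 9.88%. After quantile normalization limma called 2 genes lower, Rps13 and Rps9, against 1.13% of all probe sets, and 0 higher, against 1.72%. Before adjustment 13 were then lower and 2 higher at p under 0.05, against 9.43% and 8.81% of all probe sets. The count depended on VE array 2, which enters this comparison only through the shared estimate of spread: without it limma called 21 genes lower (33.9%, against 7.18% of all probe sets). Without VE array 1 it called 3, and without VE array 3, or without any 1 of the wild-type or ob/ob vehicle arrays, it called 0.

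**Figure D1:**
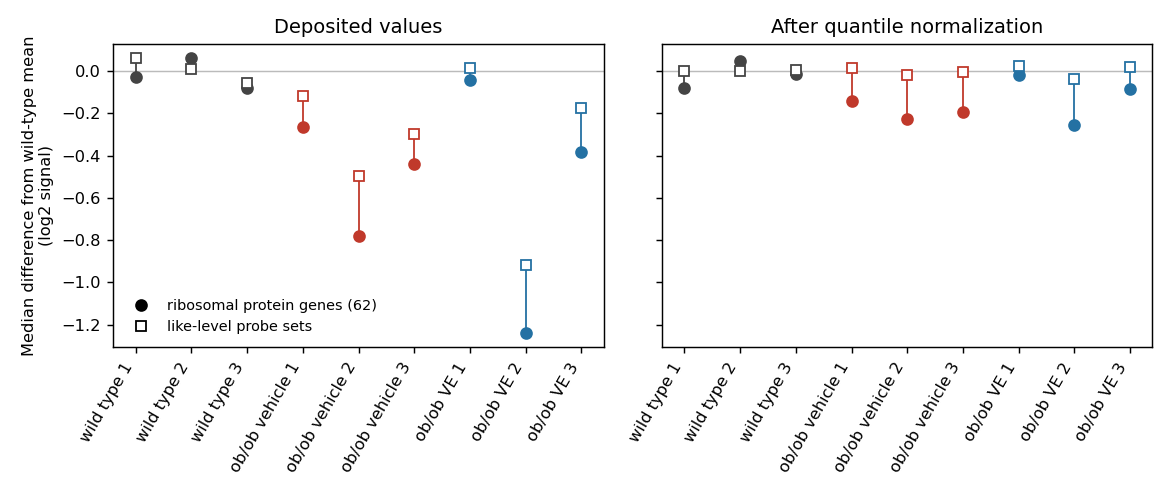
Median log2 difference from the wild-type mean on each of the 9 arrays, for the 62 ribosomal protein genes (filled circles) and for their like-level probe sets (open squares), with deposited values on the left and quantile-normalized values on the right. The circles of the ob/ob vehicle arrays lie at -0.27, -0.78 and -0.44 on the left, each below its square, and VE array 2 is lowest at -1.24.

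Array by array, the median of the 62 genes against the wild-type mean was -0.03, 0.06 and -0.08 on wild-type arrays 1 to 3. It was -0.27, -0.78 and -0.44 on the ob/ob vehicle arrays and -0.04, -1.24 and -0.38 on the VE arrays. All 3 ob/ob vehicle arrays lay below the wild-type arrays, while VE array 1 lay among them. Like-level probe sets followed the same order, at -0.12, -0.50 and -0.30 on the ob/ob vehicle arrays and 0.01, -0.92 and -0.18 on the VE arrays. The median excess was -0.09, 0.04 and -0.02 in wild type, -0.15, -0.23 and -0.18 in ob/ob vehicle and -0.05, -0.21 and -0.13 in VE. The group means of that excess were -0.021 ± 0.063, -0.185 ± 0.042 and -0.127 ± 0.081 (SD, n = 3). On this measure the ob/ob vehicle arrays again lay below every wild-type array, and they were closer together than on the deposited scale.

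On the deposited values most of the genes of a group were high or low on the same arrays. Of the 9 arrays VE array 2 held the lowest value for 47 of the 62 genes, ob/ob vehicle array 2 for 8 and the wild-type arrays for 0. Within the VE group, array 1 was the highest for 52 genes and array 2 the lowest for 56. After quantile normalization VE array 1 was the highest for 24 genes, and VE array 2 the lowest for 34 and the highest for 19. The median SD of a gene within its group was 0.145 in wild type, 0.269 in ob/ob vehicle and 0.568 in VE, beside 0.160, 0.227 and 0.510 for like-level probe sets.

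The difference from wild type differed between signal levels. Split into 4 classes of mean signal, the 10 dimmest genes had a median difference of -0.10 and the 15 brightest -0.60, beside like-level medians of -0.13 and -0.43. The median excess was -0.15 in the dimmest class, -0.36 in the 17 genes above it, -0.17 in the next 20 and -0.17 in the brightest class. All paralog forms except Rpl22l1 fell in the dimmest class, so low signal and paralog form cannot be told apart there. The other genes of that class, Rpl36, Rplp0 and Rpl27, stood at -0.79, -0.70 and 0.27.

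**Figure D2:**
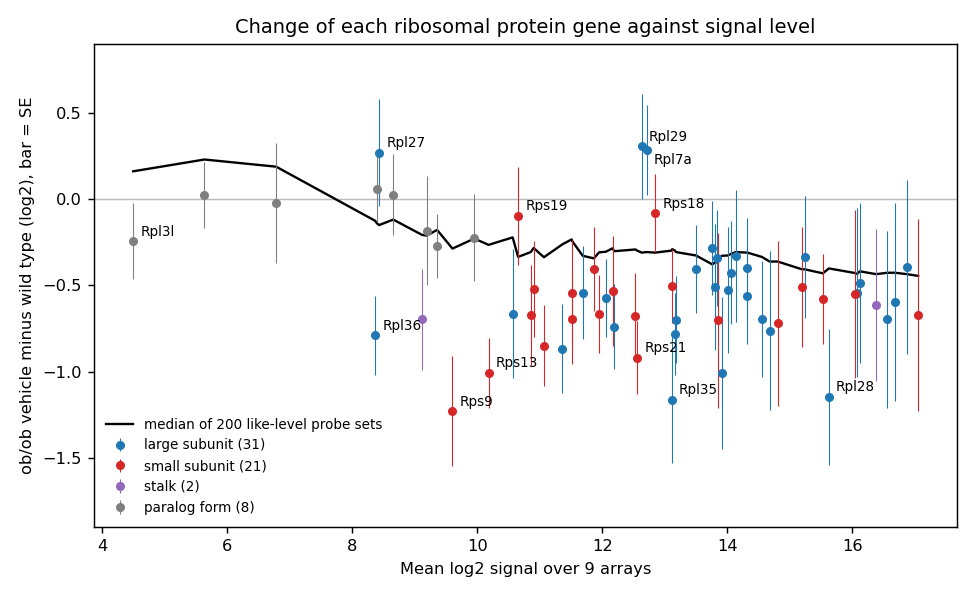
Difference between ob/ob vehicle and wild type (log2, bar = SE) of each of the 62 genes against its mean log2 signal over 9 arrays, coloured by subunit, with the median of 200 like-level probe sets as a line. The line falls as signal rises, Rps9, Rps13, Rpl35 and Rpl28 lie well below it, and Rpl29, Rpl7a and Rpl27 lie above 0.

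The sequences around the annotated start of transcription are printed for the genes that led each pattern, so that their pyrimidine runs can be compared: Rps13, Rps9, Rpl35 and Rpl28 were among the lowest in ob/ob vehicle brain, Rps6 is a substrate of the mTOR pathway, and Rpl7a and Rpl27 did not share the direction of the rest. Each is 30 bases from RefSeq on GRCm38.p6, 20 before the start and 10 from it on, 5′ to 3′ on the gene's strand. Capitals mark the longest unbroken run of C and T near the start. The windows are chr7:116334181-116334210 (minus strand) for Rps13, chr7:3704021-3704050 (plus) for Rps9, chr2:39005122-39005151 (minus) for Rpl35 and chr7:4792945-4792974 (plus) for Rpl28. They are chr4:86857358-86857387 (minus) for Rps6, chr2:26910787-26910816 (plus) for Rpl7a and chr11:101442225-101442254 (plus) for Rpl27.
Rps13: cgcgcgagagcaaacgtcggtgagtggcgt
Rps9: gtccaaccgccttgTCTCTCTTTgtctcgg
Rpl35: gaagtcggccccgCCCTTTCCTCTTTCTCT
Rpl28: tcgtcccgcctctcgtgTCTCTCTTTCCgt
Rps6: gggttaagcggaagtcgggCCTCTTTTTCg
Rpl7a: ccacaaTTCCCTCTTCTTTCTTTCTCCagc
Rpl27: ccggaacgctctgTTCCTgtctgctgctcg
The longest run was 9 bases in Rps9, 18 in Rpl35, 11 in Rpl28 and 10 in Rps6, and in Rpl35 its last base lies just past the printed window. Rpl7a, which was not lower in ob/ob vehicle, had the longest of those printed, 21 bases, and Rpl27 had 5. In Rps13 the longest run, 6 bases, begins 12 bases after the annotated start and lies outside the printed window.

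Promoters of 49 of the 62 genes were in the RefSeq table. A run of at least 8 pyrimidines within 20 bases of the start was present in 25 of the 49 (51.0%), against 20.9% of all 27025 genes in the table, and the median longest run was 8 bases against 5. The pyrimidine motif CTTTC lay within 20 bases of the start on the gene's strand in 12 genes (24.5%, against 6.6% of all) and on the other strand in 3 (6.1%, against 5.8%), or on either in 14 (28.6%, against 12.1%). CCGGAAG, the core bound by ETS factors such as GABP, was in the 300 bases around the start of 20 genes on either strand (40.8%, against 9.9% of all). AAGATGG, the core bound by YY1, was in 8 genes (16.3%, against 7.3%), and since it shares the letters AAG with the end of CCGGAAG, a single site can count for both. These counts describe the letters in the windows.

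All 21 small-subunit genes were lower in ob/ob vehicle than in wild type on the deposited scale (19 of 21 after quantile normalization), and 16 of them did not overlap between the groups (17.5% of all and 32.7% of like-level probe sets lay wholly below wild type). Their median difference was -0.67 and their median excess -0.30. For 10 of them p was under 0.05 before adjustment by limma, all lower, against 10.2% of all probe sets.

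Rps13, a protein of the small-subunit body, read 10.72, 10.60 and 10.87 in wild type, 9.88, 9.77 and 9.52 in ob/ob vehicle and 10.29, 9.86 and 10.13 in VE. Its ob/ob vehicle arrays all lay below the wild-type arrays, and 1 of the VE arrays lay within the ob/ob range. It was 2.01-fold lower in ob/ob vehicle, a difference of -1.01 (SE 0.203, limma adjusted p 0.0401, n = 3 per group), with an excess of -0.74. The call was lost without any 1 of the wild-type or ob/ob vehicle arrays or without VE array 3 (limma adjusted p 0.0538 to 0.203), and over all alternatives the adjusted p was 0.00171 to 0.203.

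Rps9, which lies where messenger RNA enters the small subunit, read 10.26, 10.27 and 10 in wild type, 9.36, 8.69 and 8.79 in ob/ob vehicle and 10.39, 8.93 and 9.75 in VE. The ob/ob vehicle arrays were all below wild type, and the VE arrays ran from the ob/ob vehicle range to above wild type. The difference of -1.23 was the largest of the 62 (SE 0.319, limma adjusted p 0.0694, n = 3 per group), 2.35-fold, and its excess of -0.94 was the largest as well. After quantile normalization it was -1.06 and passed (limma adjusted p 0.0345, n = 3 per group).

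Rps21 read 13.12, 13.03 and 12.94 in wild type, 11.95, 12.11 and 12.27 in ob/ob vehicle and 12.90, 12.32 and 12.39 in VE, so that the 3 groups did not overlap at all. The difference from wild type was -0.92 in the vehicle group (SE 0.212, limma adjusted p 0.0544, n = 3 per group). Rps16 had the same order except that VE array 1 reached the wild-type range, with 11.43, 11.89 and 11.24 in wild type, 10.78, 10.65 and 10.58 in ob/ob vehicle and 11.40, 10.80 and 10.84 in VE.

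Rps6, the small-subunit protein phosphorylated by S6 kinase below mTOR, read 16.65, 16.66 and 16.55 in wild type, 16.39, 15.51 and 16.31 in ob/ob vehicle and 16.37, 13.93 and 16.04 in VE. Its ob/ob vehicle difference of -0.55 came with an excess of only -0.12. Most of its difference was thus shared by its like-level probe sets, whose mean signals ran from 14.82 to 17.24. Rps23, a protein of the decoding centre, stood at -0.67 with an excess of -0.23, Rps7 at -0.70 with -0.35 and Rps25 at -0.68 with -0.39. Rps26, which lies at the messenger RNA exit, and the X-linked Rps4x stood at -0.52 and -0.53, each with overlap between the groups. Rps19, the gene most often mutated in Diamond-Blackfan anaemia, was at -0.10, with 10.72, 11.22 and 10.88 in wild type against 11.15, 10.38 and 11.00 in ob/ob vehicle. Rps18 was at -0.08, the smallest difference in the subunit.

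Among the 31 large-subunit genes 28 were lower in ob/ob vehicle (23 after quantile normalization) and 26 did not overlap between the groups, against the same 17.5% and 32.7%. The median difference was -0.54 and the median excess -0.20. None was called by limma, and 9 were lower at p under 0.05 before adjustment, against 10.2% of all probe sets.

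Rpl35, which lies beside the exit of the peptide tunnel, read 13.72, 13.56 and 13.69 in wild type, 12.94, 12.17 and 12.37 in ob/ob vehicle and 13.84, 12.13 and 13.56 in VE. The wild-type arrays were tight, all ob/ob vehicle arrays were below them, and VE arrays 1 and 3 were at the wild-type level. Vehicle-treated ob/ob brain differed from wild type by -1.16 (SE 0.366, limma adjusted p 0.112, n = 3 per group), with an excess of -0.86.

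Rpl28 read 16.80, 16.26 and 16.34 in wild type, 15.82, 14.93 and 15.21 in ob/ob vehicle and 16.12, 14.22 and 14.94 in VE, so both ob/ob groups lay below wild type. The first of these differences was -1.15 (SE 0.394, limma adjusted p 0.139, n = 3 per group) and its excess -0.74. Rpl6 stood at -1.01 with an excess of -0.68, and Rpl36 at -0.79 with an excess of -0.67.

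Rpl5 and Rpl11, which with 5S ribosomal RNA form the particle that binds Mdm2 when ribosome assembly stalls, differed from wild type by -0.43 and -0.76, with excesses of -0.11 and -0.40. Neither overlapped between the groups, and neither was called (limma adjusted p 0.441 and 0.372, n = 3 per group). Rpl8, which lies at the peptidyl transferase centre, stood at -0.70, with 13.71, 13.48 and 13.29 in wild type against 12.77, 12.75 and 12.86 in ob/ob vehicle. Rpl35a, another gene mutated in Diamond-Blackfan anaemia, was at -0.66, and Rpl7 at -0.28 with overlap between the groups. Rpl41, which encodes a very short peptide, was at -0.39 with an excess of 0.04. It thus differed no more than the median of its like-level probe sets, whose mean signals ran from 15.16 to 18.58.

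**Figure D3:**
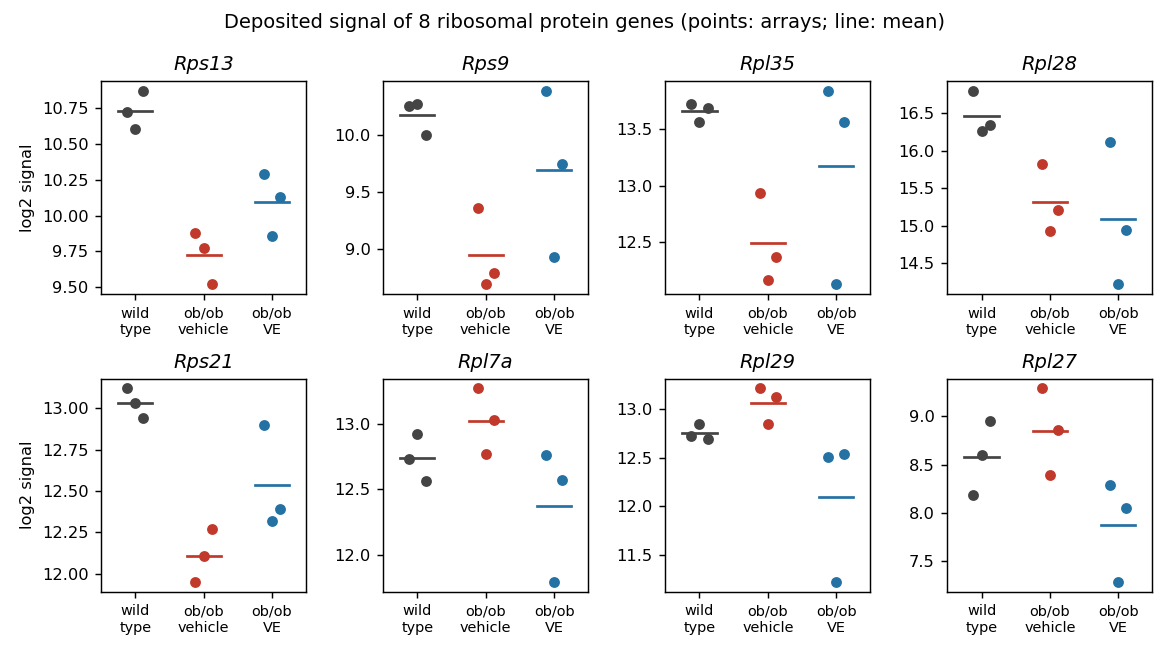
Deposited log2 signal of 8 ribosomal protein genes in wild type, ob/ob vehicle and ob/ob VE, with a point per array and a line at each group mean. In Rps13, Rps9, Rpl35, Rpl28 and Rps21 the ob/ob vehicle points all lie below the wild-type points, and in Rpl7a, Rpl29 and Rpl27 they overlap wild type and lie above the VE points.

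Rpl29, Rpl7a and Rpl27 were the large-subunit genes that stood above wild type in ob/ob vehicle. Rpl29 read 12.72, 12.84 and 12.69 in wild type, 13.21, 12.84 and 13.12 in ob/ob vehicle and 12.51, 11.22 and 12.54 in VE. Rpl7a read 12.73, 12.92 and 12.56 in wild type, 13.27, 12.77 and 13.03 in ob/ob vehicle and 12.76, 11.79 and 12.57 in VE. Rpl27 read 8.18, 8.60 and 8.95 in wild type, 9.29, 8.39 and 8.86 in ob/ob vehicle and 8.29, 7.28 and 8.05 in VE. In each of the 3 genes the ob/ob vehicle arrays reached into the wild-type range and lay above all VE arrays. The ob/ob vehicle differences were 0.31 for Rpl29, 0.29 for Rpl7a and 0.27 for Rpl27, with excesses of 0.62, 0.59 and 0.42, and none was called (limma adjusted p 0.603, 0.565 and 0.656, n = 3 per group). Quantile normalization without VE array 2 was the one alternative under which limma called any of them higher, Rpl29 at 0.63 and Rpl7a at 0.60 (adjusted p 0.0258 and 0.0317).

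The stalk recruits elongation factors to the ribosome. Rplp0, its base, read 9.45, 9.61 and 9.50 in wild type, 9.29, 8.44 and 8.74 in ob/ob vehicle and 9.48, 8.35 and 9.18 in VE. Rplp1 read 16.80, 17.08 and 16.94 in wild type, 16.36, 16.13 and 16.49 in ob/ob vehicle and 16.87, 14.50 and 16.28 in VE. Both lay wholly below wild type in ob/ob vehicle, at -0.70 and -0.61, and both spanned the wild-type and ob/ob vehicle ranges or beyond in VE. Rplp0 had an excess of -0.49 and Rplp1 of -0.18.

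The 8 paralog forms, all but Rpl22l1 in the dimmest class of signal, stood nearer to wild type. Their median difference in ob/ob vehicle was -0.10, with 5 of 8 lower and a median excess of -0.05, and the difference between them and the core genes was not tested. Rpl7l1, a homologue of Rpl7, was the one form without overlap, at 9.38, 9.47 and 9.58 in wild type against 9.30, 9.11 and 9.20 in ob/ob vehicle (-0.27). Rpl3l, the striated-muscle form of Rpl3, stood at -0.24, Rpl22l1 at -0.22, Rpl32l at -0.18 and the testis form Rpl10l at -0.02. Rpl39l, another testis form, stood at 0.02, the p53 target Rps27l at 0.03 and Rps4l at 0.06. Several of these forms gave low signals in brain, from 4.14 to 4.85 for Rpl3l and from 5.40 to 5.80 for Rpl39l.

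**Figure D4:**
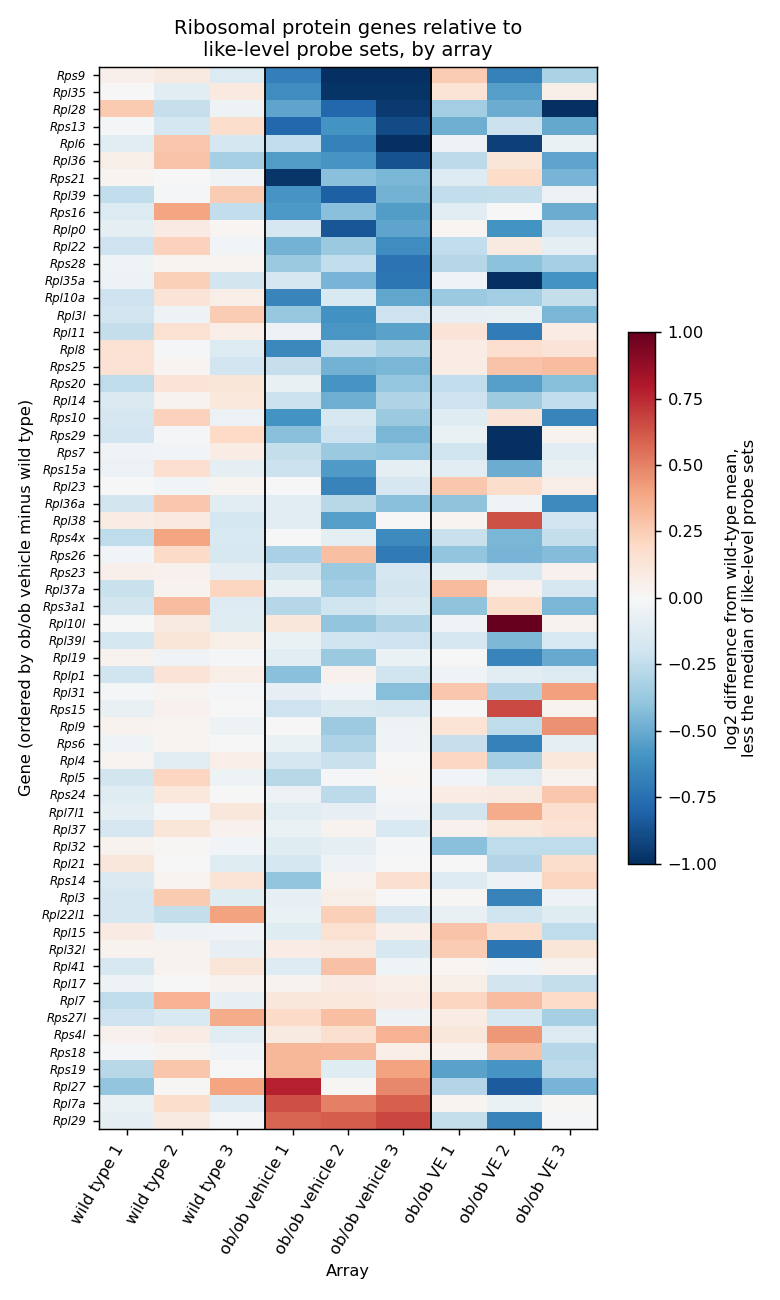
Log2 difference of each of the 62 genes (rows, ordered by excess in ob/ob vehicle) from its wild-type mean on each of the 9 arrays (columns), less the median of like-level probe sets. Colours run from blue (lower) to red (higher), and values beyond -1 or 1 take the end colours. Blue fills most of the upper rows of the 3 ob/ob vehicle columns, and the bottom rows, with Rpl27, Rpl7a and Rpl29, are red there.

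VE against ob/ob vehicle asks whether the extract moved these genes within the obese strain. No gene was called by limma, at 0.473% of all probe sets called lower and 0.0135% called higher, and before adjustment 4 genes were lower and 1 higher at p under 0.05 (10.1% and 3.21% of all probe sets). The median difference was -0.08 on the deposited values, with 35 genes lower against 58% of all probe sets, but 0.09 after quantile normalization, 0.05 after centring and 0.11 after cyclic loess, so its direction depended on the scaling. After quantile normalization 39 genes were higher, against 52.8% of all probe sets. Before adjustment 11 of them were then higher and 4 lower at p under 0.05 (7.77% and 9.12% of all probe sets). The median excess was 0.10, with 23 of 62 genes below 0. Without VE array 2 the median difference was 0.34 and the median excess 0.13, and without ob/ob vehicle array 1 the median difference was 0.05.

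For 2 genes, Rps21 (0.43) and Rps16 (0.34), all VE arrays lay above all ob/ob vehicle arrays (3.23%, against 4.62% of all and 3.88% of like-level probe sets). For 4 genes, Rpl27, Rpl29, Rpl7a and Rpl39l, they lay below (6.45%, against 11.9% and 9.28%). After quantile normalization 13 genes lay above (21%, against 10.2% of all and 11.7% of like-level probe sets) and 5 below (8.06%, against 10.1% and 12.5%). Without VE array 2 it was 21 genes above (33.9%, against 16%) and 4 below (6.45%, against 17.5%).

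The largest positive differences were Rps9 at 0.74, Rpl35 at 0.68, Rpl10l at 0.56, Rps25 at 0.54, Rpl8 at 0.46 and Rps21 at 0.43. Rps9 and Rpl35 each read above every ob/ob vehicle array on VE arrays 1 and 3, and on VE array 2 Rps9 lay within the ob/ob vehicle range and Rpl35 just below it. Without VE array 2, an alternative added after the data were seen, limma called both higher, Rpl35 at 1.21 and Rps9 at 1.12. Their limma adjusted p was 0.018 and 0.033 (2 VE against 3 ob/ob vehicle arrays). In that fit 0.549% of all probe sets were called higher and 1.27% lower, and no ribosomal protein gene was called lower. The Rpl10l value came from VE array 2 alone, which read 8.20 where the other 8 arrays read 6.38 to 6.82. Because the ob/ob vehicle arrays are shared by both comparisons, a gene that is low on them tends to be higher in VE, and the values of each comparison are given side by side without a test of the relation.

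The largest negative differences were Rpl27 at -0.97, Rpl29 at -0.97, Rpl41 at -0.71, Rps19 at -0.66, Rpl7a at -0.65 and Rps6 at -0.62. Rpl29 passed at adjusted p under 0.05 only after quantile normalization (-0.93, limma adjusted p 0.0411, against 1.19% of all probe sets called lower), cyclic loess, quantile normalization without VE array 2, or array weights. On the deposited values its SE was 0.306 and its limma adjusted p 0.180 (n = 3 per group), and it stood at -0.53 without VE array 2. Rps19 read 10.43, 9.59 and 10.52 in VE, with an excess of -0.71. Rpl41 and Rps6 had excesses of -0.02 and -0.18, which are smaller than their differences. Rps27l and Rps7 were among the 6 lowest by excess, at -0.28 and -0.27. For Rps7 this rested on VE array 2, as it read 14.28, 11.67 and 14.10 in VE against 14.05, 13.47 and 13.74 in ob/ob vehicle.

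VE against wild type compares the treated obese mice with the lean strain. In it 61 of 62 genes were lower on the deposited values, where 58.7% of all probe sets were, and the exception was Rpl10l at 0.54. After quantile normalization 44 of 62 were lower (71%, against 49.3% of all probe sets). The median difference was -0.52, beside -0.37 for like-level probe sets, and the median excess was -0.15. Quantile normalization gave a median of -0.15 and an excess of -0.14, and without VE array 2 the deposited median was -0.19 and the excess -0.10.

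No gene was called by limma against wild type, where 0.0991% of all probe sets were called lower and 0 higher, and 22 were lower and 0 higher at p under 0.05 before adjustment (9.21% and 2.98% of all probe sets). After quantile normalization limma called none of the 22206 probe sets, and 3 of the 62 genes were lower at p under 0.05, against 5.67% of all probe sets. For 16 genes (25.8%) all VE arrays lay below all wild-type arrays, against 11.5% of all probe sets and 20.8% of like-level probe sets. These were 7 large-subunit and 9 small-subunit genes. After quantile normalization 7 genes lay wholly below wild type and 3 wholly above, each against 7.97% of all probe sets.

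The lowest were Rpl28 at -1.37, Rps23 at -1.21, Rps6 at -1.17, Rps7 at -1.11, Rpl41 at -1.10 and Rplp1 at -1.06. For Rps23, Rpl41 and Rplp1 the excess was -0.05, 0.01 and -0.05, so these values were close to the medians of their like-level probe sets. Those probe sets spanned wide ranges of mean signal, 15.35 to 18.77, 15.16 to 18.58 and 14.97 to 17.78. Rpl28 had an excess of -0.68, Rps7 of -0.62, Rpl35a of -0.58, Rpl27 of -0.53, Rps19 of -0.47 and Rps26 of -0.41. That of Rps7 came mostly from VE array 2, with -0.20, -1.64 and -0.10 on VE arrays 1 to 3. Rpl35a was also lowest there, with -0.035, -1.15 and -0.595. Rpl28 (SE 0.394, limma adjusted p 0.196, n = 3 per group) was called in this comparison only without VE array 1, at -1.89 (limma adjusted p 0.0339), and with array weights.

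Other genes of the translation machinery were taken from lists. Of 5 ribosomal proteins that the symbol rule misses, 3 were measured. Fau, which encodes a small-subunit protein fused to a ubiquitin-like one, in ob/ob vehicle fell by 1.02, with an SE of 0.216 and an adjusted p of 0.0443 by limma (n = 3 per group), from 12.48, 12.27 and 12.12 to 11.43, 11.18 and 11.20. In VE it read 12.18, 11.55 and 11.77, above every ob/ob vehicle array. Rpl36al and Rpsa stood at -0.43 and -0.07.

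Of 17 genes of other TOP messenger RNAs, such as elongation factors, 16 were measured. In ob/ob vehicle 15 were lower, against 48.6% of all probe sets, and 12 lay wholly below wild type, against 17.5%. The median was -0.52 and 0 were called. Before adjustment 4 were lower at p under 0.05 by limma, against 10.2% of all probe sets. Eef1b2, an exchange factor of elongation factor 1, stood at -0.93 and Eif3h at -0.68 (limma adjusted p 0.108 and 0.192, n = 3 per group). Their median difference and median excess, -0.19, were close to those of the 62 genes.

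Of 31 initiation factor genes 24 were measured, with a median of -0.34 and an excess of -0.03. Of these, 13 lay wholly below wild type, against 17.5% of all probe sets. Before adjustment 7 were lower at p under 0.05 by limma, against 10.2%. Limma called 1, Eif3k, where 0.73% of all probe sets were called lower. This subunit of initiation factor 3 fell by 0.97 (SE 0.188, limma adjusted p 0.0366, n = 3 per group), from 12.47, 12.47 and 12.52 to 11.62, 11.29 and 11.63, and was not called after quantile normalization (adjusted p 0.101). Of 40 ribosome biogenesis genes 39 were measured, with a median of -0.25, an excess of -0.08 and 0 called. Before adjustment 3 were lower and 1 higher, against 10.2% and 9.88% of all probe sets. Their lowest p-values were those of Pes1 at -0.75 and Nop2 at -0.50. Of 18 genes of the mTOR pathway and of TOP control 17 were measured, with a median of -0.27, an excess of -0.14 and 0 called. Before adjustment 3 were lower, against 10.2% of all probe sets, with Akt1 at -0.78 and Mtor at -0.67.

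The 76 mitochondrial ribosomal protein genes, whose products make the separate ribosome of mitochondria, had a median of -0.41 in ob/ob vehicle and an excess of -0.26. Of them 69 were lower, against 48.6% of all probe sets, and 38 lay wholly below wild type, against 17.5%. Before adjustment 28 were lower and 0 higher at p under 0.05 by limma, against 10.2% and 9.88% of all probe sets. Mrpl52 fell by 0.94 (SE 0.189, limma adjusted p 0.0401, n = 3 per group), and 5 of the 76 were called lower after quantile normalization, against 1.13% of all probe sets. In VE against ob/ob vehicle limma called none of these lists' genes on the deposited values, and before adjustment 7 mitochondrial ribosomal protein genes were higher and 0 lower at p under 0.05 (3.21% and 10.1% of all probe sets). Against wild type it again called none. Before adjustment 14 of the mitochondrial and 9 of the TOP genes were lower, against 9.21% of all probe sets. So were 7 of the mTOR and TOP control genes, 5 of the initiation factor genes and 0 of the ribosome biogenesis genes. Among the mitochondrial genes 1 was higher, against 2.98% of all probe sets. Myc, the transcription factor that drives ribosome production, read 6.81, 6.92 and 7.39 in wild type. It read 7.07, 6.99 and 6.73 in ob/ob vehicle and 6.35, 5.43 and 5.76 in VE, a difference of -1.08 between these 2 groups (limma adjusted p 0.0824, n = 3 per group). Its list, that of mTOR and TOP control, had a median of -0.10 in VE against ob/ob vehicle. Of its 17 genes 1 was lower and 0 higher at p under 0.05 before adjustment by limma, against 10.1% and 3.21% of all probe sets.

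Markers of brain cell types moved with the groups too. In ob/ob vehicle the oligodendrocyte list (8 of 9 measured) had a median of -1.17 with 8 of 8 lower and 1 called, and its log2 summed signal was 18.5 to 18.8 in wild type, 16.7 to 17.9 in ob/ob vehicle and 15.2 to 17.9 in VE. The astrocyte list (9 of 9) had a median of -0.68 with 3 called, at 18.81 to 19.01, 18.1 to 18.8 and 16.3 to 18.9. The choroid plexus list (7 of 8) had a median of -1.48 with 2 called, at 19.28 to 19.88, 15.1 to 19.3 and 15.5 to 19.3. Microglia (8 of 9) stood at -0.74 with 1 called, at 11.8 to 12.0, 11.1 to 11.4 and 10.9 to 11.5. Neuron markers (11 of 11) had a median of -0.60 with 0 called and 5 lower before adjustment, at 20.2 to 20.5, 19.2 to 20.2 and 17.2 to 20.2. Endothelium (7 of 7), ependyma (4 of 5) and oligodendrocyte precursors (3 of 4) stood at -0.31, -0.14 and -0.36 and blood (2 of 6) at 0.56, all with 0 called (1 endothelial marker was lower and 1 blood marker higher before adjustment). Of all probe sets 0.73% were called lower and 0.536% higher. Before adjustment 6 oligodendrocyte, 7 astrocyte, 4 choroid plexus and 6 microglia markers were lower at p under 0.05 by limma. Of all probe sets 10.2% were then lower and 9.88% higher. Relative to like-level probe sets the ob/ob vehicle medians were -0.92 for oligodendrocytes, -0.45 for astrocytes, -1.32 for choroid plexus, -0.62 for microglia, -0.17 for neurons and -0.042 for endothelium. After quantile normalization the neuron median was -0.25. Limma then called 1 oligodendrocyte, 1 astrocyte, 2 choroid plexus and 4 microglia markers lower, against 1.13% of all probe sets. A sum is mostly that of the brightest markers of its list. In VE against ob/ob vehicle the list medians were 0.27 for oligodendrocytes (2 of 8 lower), 0.30 for astrocytes, 0.23 for choroid plexus, 0.22 for microglia and 0.03 for neurons, with excesses of 0.32, 0.36, 0.46, 0.28 and 0.05. On the deposited values limma called no marker in this comparison. Before adjustment 1 oligodendrocyte, 2 astrocyte, 1 choroid plexus, 2 neuron and 2 endothelial markers were higher, against 3.21% of all probe sets. Lower were 1 astrocyte and 1 blood marker, against 10.1%. After quantile normalization limma called 1 neuron and 1 endothelial marker higher, against 0.27% of all probe sets. No marker was at 0 on any array. The part of cell composition, of RNA quality or of the spread of signals on each array in the ribosomal protein values was not tested.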

How the data were processed

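Brain RNA of 9 samples in 3 groups of 3, assigned from the labels, was measured on Clariom S mouse arrays. The deposited values are log2 signals that the authors computed by SST-RMA, a robust multi-array average on transformed signals, per the labels' protocols. The submitters' processing notes name Transcriptome Analysis Console 4. The genes and lists were chosen with earlier results of these data known.

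The deposited values were fitted without further normalization by limma 3.58.1 in R 4.3.3, with a mean per group over 9 arrays. Variances were moderated with a prior of 7.03 degrees of freedom added to 6 residual ones, and p-values of all 22206 probe sets were adjusted by Benjamini-Hochberg. Calls were made at adjusted p under 0.05. Precision was limited by 3 arrays per group.

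Genes were named where called, where among the 6 lowest or 6 highest by difference or the 6 lowest or 3 highest by excess in a comparison, as stalk genes or paralog forms, or for a known role. Of each list, called genes or the 2 with the smallest p were named. Rps16, Rps18, and Myc in VE, were added after their values were seen. Promoter sequences came from RefSeq (GRCm38.p6). Alternatives covered normalization, moderation, filters, thresholds, weights, the size of the like-level set and leaving out each array. Scripts were tested on simulated data.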

Additional observations from a re-analysis of the deposited data

How the results depend on the processing

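No named gene reversed a called direction under the alternatives tried, but of the 62 genes only Rps13 was called on the deposited values. Differences that were not called could change sign. In VE against ob/ob vehicle Rpl41 ran from -1.25 to 0.12, Rps6 from -1.085 to 0.135 and Rps7 from -0.87 to 0.44. Rps9 (0.39 to 1.12) and Rpl35 (0.35 to 1.21) stayed above 0. The median excess stayed below 0 in ob/ob vehicle against wild type (-0.25 to -0.16 leaving out 1 array at a time) and in VE against wild type (-0.22 to -0.10), and above 0 in VE against ob/ob vehicle (0.06 to 0.13). The median differences ranged from -0.67 to -0.36, from -0.77 to -0.19 and from -0.29 to 0.34 in that leave-one-out, the last changing sign without VE array 2 or ob/ob vehicle array 1. Quantile normalization without VE array 2 brought the median of VE against wild type to -0.068.

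Counts of called genes moved most. In ob/ob vehicle against wild type limma called 2 genes after quantile normalization, 4 after centring, 3 after cyclic loess, 6 after quantile normalization without VE array 2 (4 of them lower), 19 with the compared groups alone and 23 with array weights. Of all probe sets, the first 3 of these fits called 1.13%, 2.02% and 1.45% lower, against 0.73% as reported. The last 3 fits called 4.16%, 6.4% and 8.65% of all probe sets lower. Limma called 2 with the 3 missed ribosomal proteins added (0.73% of all probe sets lower). It called 2 when only probe sets over the median signal were tested (2.21% of those lower) and 6 at adjusted p under 0.1 (2.88% lower). By the authors' rule of unadjusted p under 0.05 with a fold over 1.1, 20 passed, all lower, against 10.2% of all probe sets. Leaving out 1 array gave 0 to 21. In VE against ob/ob vehicle limma called 1 after quantile normalization and 1 after cyclic loess, both lower (1.19% and 1.4% of all probe sets). It called 3 after quantile normalization without VE array 2, 1 of them lower (1.36% of all probe sets lower and 0.527% higher). With array weights it called 10, 2 of them lower, where 8.76% of all probe sets were called lower and 6.13% higher. By the authors' rule 4 were lower and 1 higher, against 10.1% and 3.21% of all probe sets. Leaving out 1 array gave 0 to 2 calls. In VE against wild type limma called 17 with array weights (9.59% of all probe sets lower), and leaving out 1 array gave 0 to 1. By the authors' rule 22 passed, all lower, against 9.21% of all probe sets. With VE array 2 left out, an alternative added after the data were seen, 21 genes did not overlap upward in VE against ob/ob vehicle (33.9%, against 16% of all probe sets). In VE against wild type it was 1 gene (1.61%, against 12.6%). Why these counts moved was not tested, except that the fits with fewer arrays or groups have another estimate of spread.

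With the replicate number as a block limma called 1, 0 and 0 genes in the 3 comparisons, and Rps13 had an adjusted p of 0.0446. Arrays of the same number correlated at -0.032 to 0.33 over 9 pairs, and those of other numbers at -0.29 to 0.11 over 18. These coefficients are not those of the signals themselves, which ran from dim to bright genes in much the same order on every array. Of 9 arrays 5 correlated best with their own number. Not every same-number pair was over 0.1, so the numbers were not taken as pairs.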
